A study of Mus musculus with 32 samples.

Results

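The comparison asked whether SOD1*G93A, a mutant form of human superoxide dismutase that causes motor neuron disease in mice, changed ribosome-bound RNA differently in 2 populations of layer 5b cortical neurons. For every gene, the SOD1*G93A effect in Colgalt2 immunoprecipitates (IPs) was subtracted from that in Gprin3 IPs. The difference of the effects rested on 12 of the 32 libraries of the series, chosen by the line and genotype that their labels give. They were 3 SOD1*G93A and 2 wild-type (WT) Gprin3 IPs, and 4 SOD1*G93A and 3 WT Colgalt2 IPs.

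Both sets were made by TRAP, the affinity purification of translating ribosomes from a chosen cell type. In bacTRAP mice, a driver gene's regulatory DNA on a bacterial artificial chromosome expresses an EGFP-tagged ribosomal protein L10a, and an antibody to EGFP then pulls down the mRNA on tagged ribosomes. All 12 libraries carried such a transgene, including the WT libraries, which were littermates without the SOD1 transgene. SOD1*G93A Gprin3 IPs were of strain Gprin3-bacTRAP::SOD1*G93A with genotype SOD+, and their WT had genotype SOD-. SOD1*G93A Colgalt2 IPs were of Colgalt2-bacTRAP::SOD1*G93A with genotype SOD+, and their WT had SOD-. Mice were 8 to 17 weeks old, with no age per sample in the labels. The labels name the cells as lower L5b pyramidal cells in the Gprin3 line and upper L5b pyramidal cells in the Colgalt2 line. The Gprin3 IPs came from primary motor cortex (M1) and the Colgalt2 IPs from whole cortex by 1 label field, while another field names M1 for them. A difference between lines therefore cannot be told apart from a difference between dissections. Nothing states that the samples were separate animals, so p-values measure the spread between these samples.

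Layer 5b holds the corticospinal and other subcerebral projection neurons, large cells with long axons that send motor commands out of the cortex. These upper motor neurons degenerate in amyotrophic lateral sclerosis (ALS) together with the motor neurons of the spinal cord. In SOD1*G93A mice, mutant human SOD1 is made in most cells of the body, so glia and vessels around the neurons carry it too.

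Library totals of the 12 ran from 16324258 to 77220890 counts, and levels are given as CPM, counts scaled to a common library total. Fold changes are on the log2 scale with their standard errors (SE), and adjusted p-values are Benjamini-Hochberg values of edgeR's quasi-likelihood test over all 15476 genes tested. Sod1 was at 733, 731 and 691 CPM in SOD1*G93A Gprin3 IPs, against 323 and 319.6 CPM in WT Gprin3 IPs. It was at 389, 434, 453 and 374 CPM in SOD1*G93A Colgalt2 IPs, against 224, 332 and 230.3 CPM in WT Colgalt2 IPs. Every SOD1*G93A library was above every WT library of its line, as far as human transgene reads aligned to the mouse gene. The baseline Gprin3 IPs, from mice without the SOD1 cross, had 469.8 and 801 CPM, so 1 of them lay above all SOD1*G93A Gprin3 IPs. The Sod1 effects differed by 0.54 ± 0.23 between the lines (95% interval 0.06 to 1.01, adjusted p = 0.468).

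The driver levels were checked against the line labels. Colgalt2, which encodes a collagen galactosyltransferase, was at 4.87 to 8.8 CPM in SOD1*G93A and 6.57 to 7.57 CPM in WT Gprin3 IPs. In Colgalt2 IPs it was at 119 to 131 CPM in SOD1*G93A and 95.3 to 111 CPM in WT libraries. Gprin3 itself separated the lines less, at 38.7 to 49.6 CPM in SOD1*G93A and 23.7 to 37.2 CPM in WT Gprin3 IPs, against 23.5 to 35.2 CPM in SOD1*G93A and 23.6 to 37.1 CPM in WT Colgalt2 IPs. Fezf2 and Bcl11b, the transcription factors that define subcerebral projection neurons, were detected in all 12 libraries at 78.5 CPM or more. Some libraries stood apart. Y-linked Ddx3y had no count in the 3 SOD1*G93A Gprin3 IPs and WT Gprin3 replicate 1, and 72.4 CPM in WT Gprin3 replicate 2. All 7 Colgalt2 IPs had Ddx3y at 9.36 to 35.7 CPM, and Xist, which is expressed from the inactive X, was at 352 and 164 CPM in WT Colgalt2 replicates 1 and 2 and at 138 CPM in SOD1*G93A Colgalt2 replicate 2. The labels used here give no sex, and the part of sex in the results was not tested.

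The SOD1*G93A effect was lower in Gprin3 than in Colgalt2 IPs for 12 genes (0.0775% of the genes tested) and higher for 0 genes (0%). All 12 fell in SOD1*G93A Gprin3 IPs, and 0 of them changed past the threshold in Colgalt2 IPs. Their differences ran from -5.32 to -1.14 on the log2 scale. In the Gprin3 line alone 326 genes rose (2.11%) and 766 fell (4.95%), whereas in the Colgalt2 line 12 rose (0.0775%) and 0 fell (0%). At an unadjusted p under 0.05, the difference was positive for 505 genes (3.26%) and negative for 928 (6%). A further 15 genes had an adjusted p between 0.05 and 0.10, and in all 15 the Gprin3 effect was the lower. DESeq2's Wald test called 135 genes, 14 higher and 121 lower, which included all 12. For the Colgalt2 effect, 454 genes (2.93%) were lower at an unadjusted p under 0.05, and DESeq2 called 117 higher and 9 lower.

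**Figure D1:**
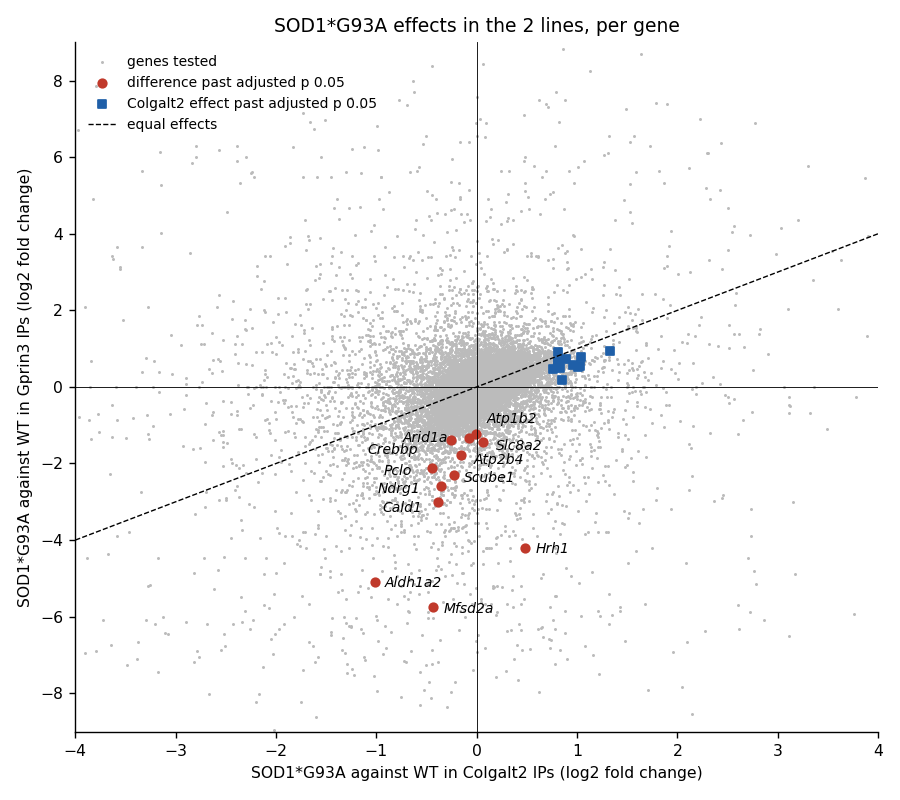
Each point is a gene, placed by its SOD1*G93A against WT log2 fold change in Colgalt2 IPs (x) and in Gprin3 IPs (y), with 15398 genes inside the axes and 78 outside them. The 12 genes whose effects differed (red) lie between -5.76 and -1.22 on the Gprin3 axis and between -1.02 and 0.48 on the Colgalt2 axis. The 12 genes that rose in Colgalt2 IPs (blue) lie above 0 on both axes.

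These calls depended on the libraries and settings used. Of the 12 genes, Scube1 passed in 23 of 24 alternative settings and the other 11 in 4 to 9 of 23 or 24. With RLE size factors or a mean of at least 5 CPM as the filter the count of called genes was 1. Without WT Gprin3 replicate 1 it was 9, of which 3 were among the 12, and without WT Gprin3 replicate 2 it was 2. Without WT Colgalt2 replicate 1, which had the highest glial marker sum of the 12 libraries, it was 146 and included all 12.

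Scube1 had the smallest p-value of all genes tested. The gene (chromosome 15, 83602583 to 83725051) encodes a secreted and membrane-associated glycoprotein with EGF-like repeats and a CUB domain. Its position, like all positions of genes below, is that of the RefSeq gene annotation (mm10). Scube1 was at 6.04, 6.8 and 8.49 CPM in SOD1*G93A Gprin3 IPs, against 34.1 and 37 CPM in WT Gprin3 IPs. In Colgalt2 IPs it was at 90.2, 79, 79.8 and 95.6 CPM in SOD1*G93A, against 110.0, 94 and 101 CPM in WT libraries. The SOD1*G93A Gprin3 libraries were all below the rest, and the Colgalt2 genotypes overlapped. Its effect was -2.29 ± 0.20 in Gprin3 IPs (adjusted p = 3.88e-06) and -0.23 ± 0.16 in Colgalt2 IPs (adjusted p = 0.853), a difference of -2.06 ± 0.26 (95% interval -2.60 to -1.52, adjusted p = 0.00171). The difference kept its sign and its side of the threshold without each of the 12 libraries in turn. With the glial marker sum as a covariate the difference was -2.06 ± 0.37 (adjusted p = 0.258), and over all 24 alternatives it lay between -2.22 and -1.60.

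The other 11 genes shared an adjusted p of 0.0488 for the difference, just under the threshold of 0.05. Among the genes named, the closest outside it was Sema5b, at -2.76 ± 0.55 (adjusted p = 0.0601). The DNA before the start of 3 of the 12 genes is shown for genes that stood out, a choice made after their values were seen. Scube1 had the smallest p, Mfsd2a the largest difference and Pclo the longest transcript. RefSeq's promoter table (GRCm38.p6) matched 10 of the 12 genes. The 250 bases upstream of each start in that table are written 5′ to 3′ on the gene's strand. That start lies a few bases inside the gene positions given here, so each window overlaps them slightly. Capitals mark a GC box (GGGCGG) or a CCAAT box (CCAAT) on either strand, so that the reverse complements are marked too. No GC box overlapped a CCAAT box.
Scube1, chr15:83725040-83725289, minus strand: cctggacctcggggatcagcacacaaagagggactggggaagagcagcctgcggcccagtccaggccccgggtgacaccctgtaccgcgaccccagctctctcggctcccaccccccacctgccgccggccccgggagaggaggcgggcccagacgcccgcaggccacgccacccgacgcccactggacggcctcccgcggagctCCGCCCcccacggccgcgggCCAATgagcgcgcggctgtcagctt
Mfsd2a, chr4:122961189-122961438, minus strand: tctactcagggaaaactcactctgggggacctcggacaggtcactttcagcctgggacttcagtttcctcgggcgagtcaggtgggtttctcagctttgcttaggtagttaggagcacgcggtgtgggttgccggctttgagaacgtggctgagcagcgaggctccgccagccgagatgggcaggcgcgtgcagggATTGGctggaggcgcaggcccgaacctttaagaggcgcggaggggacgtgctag
Pclo, chr5:14514668-14514917, plus strand: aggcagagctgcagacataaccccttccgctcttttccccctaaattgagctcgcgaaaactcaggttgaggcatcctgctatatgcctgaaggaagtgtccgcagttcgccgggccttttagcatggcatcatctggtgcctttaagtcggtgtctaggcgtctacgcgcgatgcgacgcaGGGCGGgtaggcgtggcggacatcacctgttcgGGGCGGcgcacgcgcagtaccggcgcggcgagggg
Scube1 had 1 GC box, 1 CCAAT box and 75.2% G and C, Mfsd2a had 0 GC boxes, 1 CCAAT box and 61.6%, and Pclo had 2 GC boxes, 0 CCAAT boxes and 61.2%. Of 32851 such windows in the table, 32.7% held a GC box and 33.8% a CCAAT box, and the median share of G and C was 52.4%. A match of letters is a description and not a binding site.

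Mfsd2a (chromosome 4, 122946850 to 122961194) encodes the transporter of lysophosphatidylcholine that carries docosahexaenoic acid across the blood-brain barrier. It was at 0.054, 0 and 0.17 CPM in SOD1*G93A Gprin3 IPs, against 4.69 and 4.17 CPM in WT. Colgalt2 IPs had 3.65, 3.84, 5.29 and 4.57 CPM in SOD1*G93A, against 10.4, 3.57 and 3.88 CPM in WT. The SOD1*G93A Gprin3 libraries held at most 3 counts of Mfsd2a each, so the size of its difference, -5.32 ± 0.98 (95% interval -7.36 to -3.29), is loosely bounded.

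Aldh1a2 (chromosome 9, 71215789 to 71296243) encodes a retinaldehyde dehydrogenase that makes retinoic acid and is known in the adult brain mainly from meninges. Its level was 0.054, 0.306 and 0.34 CPM in SOD1*G93A Gprin3 IPs, against 7.6 and 8.58 CPM in WT. In Colgalt2 IPs the level was 5.57, 3.88, 7.17 and 3.65 CPM in SOD1*G93A, against 17.5, 5.24 and 8.23 CPM in WT. The Gprin3 groups were far apart and the Colgalt2 groups overlapped, although its Colgalt2 effect of -1.02 ± 0.44 was the lowest of the 12 genes (adjusted p = 0.607). The effects differed by -4.07 ± 0.78.

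Hrh1 (chromosome 6, 114397936 to 114483298) encodes the histamine H1 receptor. It stood at 0, 0.551 and 0.283 CPM in SOD1*G93A Gprin3 IPs, against 7.28 and 2.98 CPM in WT, and at 6.65, 14.8, 7.12 and 7.43 CPM in SOD1*G93A Colgalt2 IPs, against 8.32, 5.74 and 5.48 CPM in WT. The genotypes separated in Gprin3 IPs and overlapped in Colgalt2 IPs, where SOD1*G93A replicate 2 was the highest of all 12 libraries. Its effects differed by -4.69 ± 0.88, and it was 1 of 2 genes among the 12 with a positive Colgalt2 estimate, 0.48 ± 0.50.

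Cald1 (chromosome 6, 34598495 to 34775469) encodes caldesmon, an actin-binding protein abundant in smooth muscle. It measured 0.486, 1.84 and 2.21 CPM in SOD1*G93A Gprin3 IPs, against 12.6 and 12 CPM in WT, and 29.2, 37, 21.2 and 21.9 CPM in SOD1*G93A Colgalt2 IPs, against 42.3, 33.5 and 32.3 CPM in WT, a difference in effect of -2.62 ± 0.49. Ndrg1 (chromosome 15, 66929318 to 66969641), whose human counterpart is mutated in a demyelinating neuropathy and which is abundant in myelinating glia, measured 7.07, 2.88 and 6.45 CPM in SOD1*G93A Gprin3 IPs, against 33.3 and 34.7 CPM in WT. Its Colgalt2 levels were 48.5, 61.3, 41.2 and 50.5 CPM in SOD1*G93A, against 88.1, 63.3 and 44.9 CPM in WT, and its effects differed by -2.22 ± 0.41. Ndrg1 overlaps antisense transcripts over 6.35% and 2.08% of its exonic bases, whose reads cannot be told apart where strand was not used. Both genes were lower in SOD1*G93A than in any WT library in Gprin3 IPs, and overlapped between genotypes in Colgalt2 IPs.

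Atp1b2 (chromosome 11, 69599728 to 69605978) encodes the beta-2 subunit of the sodium pump, an adhesion molecule abundant in astrocytes. It was at 54.2, 49.1 and 53.4 CPM in SOD1*G93A Gprin3 IPs, against 102 and 148 CPM in WT Gprin3 IPs. Colgalt2 IPs held 226, 263, 259 and 224 CPM in SOD1*G93A, against 267, 213 and 252 CPM in WT. Here the Colgalt2 genotypes were level, at -0.00 ± 0.15 (95% interval -0.31 to 0.31), and the whole difference of -1.22 ± 0.23 lay in the Gprin3 line.

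Atp2b4 (chromosome 1, 133702674 to 133801059) encodes a plasma membrane calcium pump. The Atp2b4 level was 25.5, 45.1 and 60.1 CPM in SOD1*G93A Gprin3 IPs, against 146 and 160.0 CPM in WT, and 259.7, 298, 282 and 262 CPM in SOD1*G93A Colgalt2 IPs, against 363, 272 and 288 CPM in WT. Slc8a2 (chromosome 7, 16127592 to 16161063) encodes the neuronal sodium-calcium exchanger NCX2, and so also moves calcium out of the cell. Its level was 36.2, 22 and 25.8 CPM in SOD1*G93A Gprin3 IPs, against 64 and 91.4 CPM in WT, and 122, 118, 121 and 92.8 CPM in SOD1*G93A Colgalt2 IPs, against 116, 111 and 99.1 CPM in WT. The effects differed by -1.63 ± 0.30 for Atp2b4 and by -1.50 ± 0.29 for Slc8a2. For both calcium transporters the Gprin3 genotypes were separate and the Colgalt2 genotypes overlapped.

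Pclo (chromosome 5, 14514906 to 14863465) encodes Piccolo, a very large scaffold of the presynaptic active zone. It was at 214, 183 and 197 CPM in SOD1*G93A Gprin3 IPs, against 818 and 943 CPM in WT Gprin3 IPs. In Colgalt2 IPs, Pclo was at 379.6, 674, 399 and 406 CPM in SOD1*G93A, against 872, 517 and 526 CPM in WT. Pclo estimates pointed down in both lines, -2.12 ± 0.24 in Gprin3 (adjusted p = 0.000131) and -0.45 ± 0.20 in Colgalt2 IPs (adjusted p = 0.619), and differed by -1.67 ± 0.31.

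Arid1a (chromosome 4, 133679008 to 133756769) encodes a DNA-binding subunit of the BAF chromatin remodeling complex. It was at 76.9, 91.2 and 92.9 CPM in SOD1*G93A Gprin3 IPs, against 229 and 221 CPM in WT, and at 213, 246, 195 and 175 CPM in SOD1*G93A Colgalt2 IPs, against 265, 198 and 199 CPM in WT. Crebbp (chromosome 16, 4081334 to 4213957) encodes CBP, a histone acetyltransferase and coactivator. Crebbp measured 121, 124 and 130.0 CPM in SOD1*G93A Gprin3 IPs, against 327 and 345 CPM in WT, and 235, 279, 226 and 282 CPM in SOD1*G93A Colgalt2 IPs, against 334, 275 and 311 CPM in WT. Replicates were tight in the Gprin3 line, and the effects differed by -1.26 ± 0.23 for Arid1a and by -1.14 ± 0.21 for Crebbp.

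**Figure D2:**
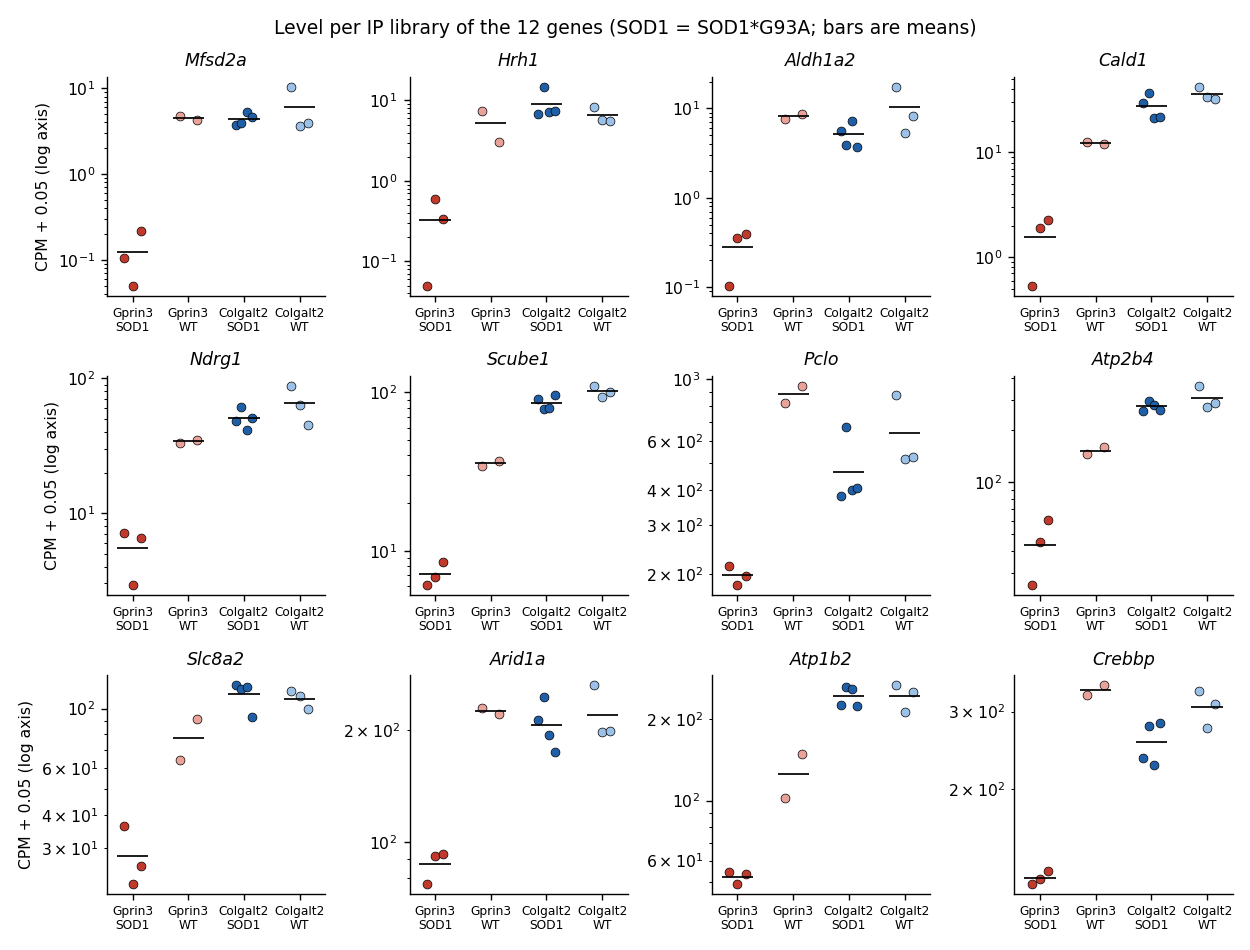
CPM plus 0.05 (log axis) of the 12 genes in each of the 12 libraries, with SOD1*G93A left of WT within each line and bars at the group mean. In every panel the 3 SOD1*G93A Gprin3 libraries lie below both WT Gprin3 libraries, and the Colgalt2 genotypes overlap.

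In all 12 genes every SOD1*G93A Gprin3 library lay below every WT Gprin3 library, which held for 3298 of the genes tested (21.3%). SOD1*G93A Gprin3 IPs had the lowest of the 4 group means in 12 of 12 genes. In Colgalt2 IPs 0 of the 12 were lower in every SOD1*G93A library, against 457 of all genes tested (2.95%). These counts describe genes chosen by the same contrast and support nothing further. For 9 of the 12, the 95% interval of the Colgalt2 effect lay within 1 log2 unit of 0, against 8503 of the 15476 genes tested.

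The 2 baseline Gprin3 IPs, from wild-type Gprin3-bacTRAP ES152 mice without the SOD1 cross, give a second view of unmutated levels. The mean baseline level lay between the SOD1*G93A and WT means for all 12 genes, and in 6 it was nearer to SOD1*G93A. Scube1 was at 30.6 and 17 CPM, Pclo at 372 and 245 CPM, Arid1a at 86.1 and 95.5 CPM and Crebbp at 151 and 114 CPM at baseline. In 10 of the 12 genes both baseline libraries were below both WT littermate libraries, and in 10 both were above all SOD1*G93A libraries. The 12 genes were chosen by a contrast of those same SOD1*G93A and WT libraries, which lie far apart in them. No share over all genes tested was taken, so these baseline counts support nothing further. With the baseline IPs in place of the WT Gprin3 IPs, 54 genes were called, 7 higher and 47 lower, and they shared 2 with the 12. The difference for Crebbp then had the opposite sign, 0.094. In whole M1 input, 11 of the 12 genes overlapped between SOD1*G93A (n = 6) and WT (n = 5) libraries, and 1 was lower in every SOD1*G93A library. The share of all genes tested that overlapped in input was not taken, so the input count cannot show whether these genes changed there.

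Transcript length moved with the difference. Long transcripts had lower estimates in both lines, with Spearman's rho of -0.333 between log2 fold change and length in each line and -0.161 for the difference, across 14683 genes, which are not independent replicates. By length, the median difference was 0.10 in the shortest, 0.02 in the middle and -0.14 in the longest group of genes of about equal number. Of the 12 genes, 7 were in the longest group, 3 in the middle and 2 in the shortest, and their median length was 5019 bases, against 3446 bases over all genes tested. With a length trend taken out of each library, 1 gene was called. The part of length in the calls was not tested further.

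Glial RNA moved with the difference as well. Marker sums of astrocytes, oligodendrocytes, oligodendrocyte precursors and microglia came to 1211 to 1269 CPM in SOD1*G93A Gprin3 IPs, against 2881 and 4190 CPM in WT Gprin3 IPs. In Colgalt2 IPs they came to 1976 to 3000 CPM in SOD1*G93A, against 2221 to 4577 CPM in WT. The 2 baseline Gprin3 IPs had 1563 and 1467 CPM, near the SOD1*G93A Gprin3 libraries. In bulk RNA, fewer cells of a type and less RNA per cell cannot be told apart. With the glial sum as a covariate, 0 genes were called for the difference and 0 for the Gprin3 effect. That sum separated the genotypes in the Gprin3 line, so the covariate and the genotype cannot be told apart there.

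**Figure D3:**
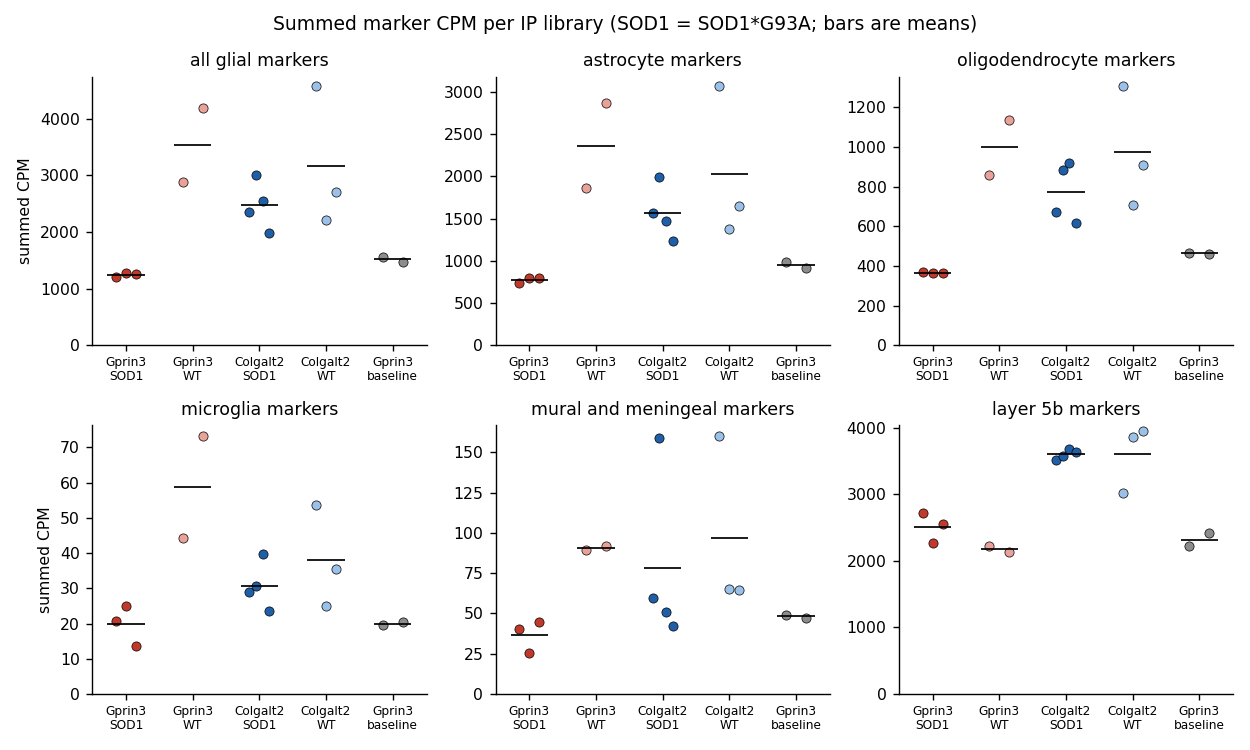
Summed CPM of marker lists in each IP library, with SOD1*G93A left of WT in each line, the 2 baseline Gprin3 IPs in grey, and bars at the group mean. The all-glia sum was 1211 to 1269 CPM in SOD1*G93A and 2881 and 4190 CPM in WT Gprin3 IPs, while the layer 5b panel shows sums of 2261 to 2719 CPM in SOD1*G93A and 2135 and 2214 CPM in WT Gprin3 IPs.

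By list, all 18 astrocyte markers had a lower effect estimate in Gprin3 than in Colgalt2 IPs, against 7769 of the 15476 genes tested. Their median difference was -1.86, against -0.00 over all genes tested. Of the 18 markers 1, Atp1b2, was called for the difference, against 0.0775% of all genes tested. A further count, at an unadjusted p under 0.05, gave 13 of the 18, against 6% of all genes tested in that direction. In the Gprin3 line 12 of the 18 fell (median -2.0), and in the Colgalt2 line 0 did (median -0.39). Over all genes tested 4.95% fell in the Gprin3 line and 0% in the Colgalt2 line. Aqp4, the water channel of astrocyte endfeet, was at 4.75, 2.82 and 5.38 CPM in SOD1*G93A Gprin3 IPs, against 8.76 and 19.4 CPM in WT. In SOD1*G93A Colgalt2 IPs Aqp4 was at 20.4, 23.9, 17.3 and 11 CPM, against 31.1, 8.88 and 24.6 CPM in WT. Its effects differed by -1.42 ± 0.60 (adjusted p = 0.475), and the Colgalt2 genotypes overlapped. Gfap, the astrocyte intermediate filament gene, gave -1.84 ± 0.70 (adjusted p = 0.395).

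Oligodendrocyte markers had 17 of 18 estimates negative, against 7769 of the 15476 genes tested. Their median difference was -1.68, and 0 were called for the difference. At an unadjusted p under 0.05, 12 of the 18 were lower, against 6% of all genes tested. In Gprin3 IPs 12 of the 18 fell (median -2.10, with 4.95% of all genes tested), against 0 in Colgalt2 IPs (median -0.30, with 0% of all genes tested). Mbp, which encodes myelin basic protein, was at 52, 59.6 and 61.4 CPM in SOD1*G93A Gprin3 IPs, against 177 and 204 CPM in WT. Its Colgalt2 levels were 169, 308, 259 and 216 CPM in SOD1*G93A, against 436, 214 and 219 CPM in WT. The Gprin3 genotypes did not overlap, and the difference of effects was -1.43 ± 0.33 (adjusted p = 0.13). Mal, a myelin proteolipid gene, came closer to the threshold at -2.37 ± 0.51 (adjusted p = 0.0961). The 10 oligodendrocyte precursor markers had a median difference of -0.21, and 0 were called.

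Microglia markers were sparse in these IPs, at 13.7 to 25.1 CPM summed over the list in SOD1*G93A Gprin3 IPs, against 44.3 and 73.3 CPM in WT. The 17 members had a median difference of -2.17, 4 were lower at an unadjusted p under 0.05 (6% of all genes tested), and 0 were called. Cx3cr1, the microglial fractalkine receptor, was at 0, 1.35 and 0.679 CPM in SOD1*G93A and 2.1 and 4.89 CPM in WT Gprin3 IPs, and its effects differed by -2.54 ± 1.34 (adjusted p = 0.603), an estimate with a wide error.

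Vascular lists followed the same direction without calls for the difference. All 16 endothelial markers had negative differences (median -1.13, and -0.98 with groups at 0 set to a floor of 3 counts over the group). Of the 15476 genes tested, 7769 had negative differences. Of the 16, 5 had an unadjusted p under 0.05, against 6% of all genes tested in that direction. The summed level of the endothelial markers was nevertheless 242 to 302 CPM in SOD1*G93A Gprin3 IPs, against 239 and 243 CPM in WT. The sum therefore did not follow the members' median. Cdh5, the endothelial cadherin, had 0 counts in all 3 SOD1*G93A Gprin3 IPs, against 1.47 and 1.07 CPM in WT Gprin3 IPs. It was therefore at least 22.3-fold lower in SOD1*G93A than in WT Gprin3 IPs, at that floor. The 2 baseline Gprin3 IPs, without the SOD1 cross, had 0 and 0.236 CPM of Cdh5, so low levels were not limited to SOD1*G93A. In Colgalt2 IPs Cdh5 was at 4.36, 7.54, 1.31 and 5.13 CPM in SOD1*G93A, against 12.2, 4.73 and 3.88 CPM in WT. The 14 mural and meningeal markers had a median difference of -2.91 (-2.80 at the floor), 12 of them negative and 0 called. Of the 14, 6 were lower at an unadjusted p under 0.05, against 6% of all genes tested.

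With baseline Gprin3 IPs as the WT, the median difference was -0.50 for astrocyte, -0.21 for oligodendrocyte and 0.34 for microglia markers. With the glial covariate these medians were -0.45, -0.62 and -1.08. With the length trend taken out they were -1.82, -1.64 and -2.22.

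**Figure D4:**
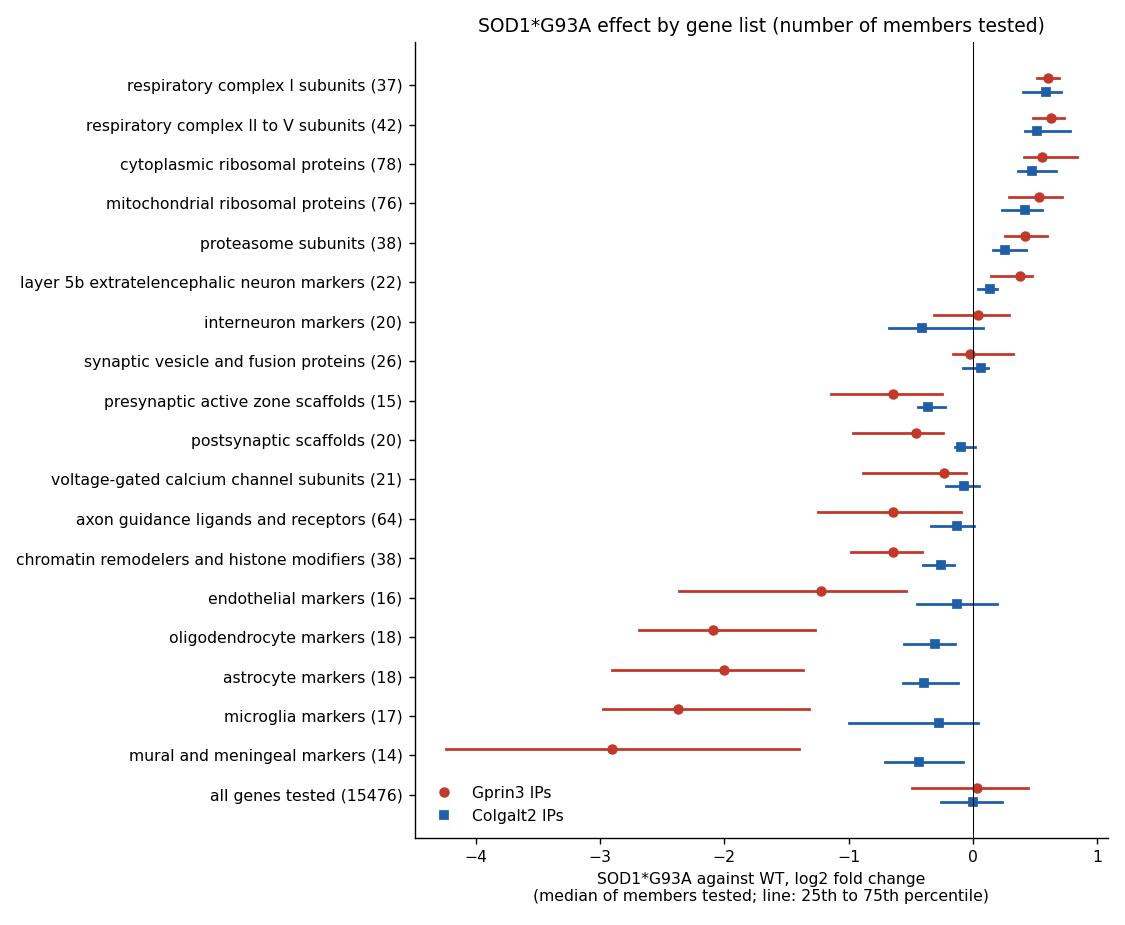
Median SOD1*G93A against WT log2 fold change of each gene list in Gprin3 IPs (red circles) and Colgalt2 IPs (blue squares), with lines from the 25th to the 75th percentile of the members and the number tested in brackets. The astrocyte, oligodendrocyte, microglia and mural lists lie between -2.90 and -2.0 in Gprin3 IPs and between -0.43 and -0.27 in Colgalt2 IPs, whereas respiratory chain and ribosomal lists lie above 0 in both lines.

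Among neuronal and nuclear lists, the chromatin remodelers and histone modifiers had 2 of 38 members called lower, Arid1a and Crebbp. Over all genes tested 0.0775% were called lower. All 38 gave 32 negative differences, against 7769 of the 15476 genes tested, and a median of -0.44. Of the 38, 16 were lower at an unadjusted p under 0.05, against 6% of all genes tested. In Gprin3 IPs 17 fell (median -0.64), and in Colgalt2 IPs 0 did (median -0.25). Over all genes tested 4.95% fell in Gprin3 and 0% in Colgalt2 IPs. The median difference was -0.14 with the length trend taken out, -0.08 with the glial covariate and 0.37 with baseline Gprin3 IPs as the WT.

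Presynaptic active zone scaffolds had 1 of 15 called lower, Pclo, against 0.0775% of all genes tested. Their median difference was -0.35. Of the 15 scaffolds, 7 fell in Gprin3 IPs (4.95% of all genes tested) and 0 in Colgalt2 IPs (0%). For synaptic vesicle and fusion proteins the median difference of 26 members was 0.02. For 25 of the 26 its 95% interval lay within 1 log2 unit of 0, against 4756 of the 15476 genes tested. Postsynaptic scaffolds had a median of -0.43, with 7 of 20 members lower at an unadjusted p under 0.05 (6% of all genes tested) and 0 called. Dlgap2, a scaffold of the excitatory postsynaptic density, was at 51.2, 64 and 60.9 CPM in SOD1*G93A Gprin3 IPs, against 142 and 117 CPM in WT. Dlgap2 in Colgalt2 IPs was at 190.4, 177, 158 and 163 CPM in SOD1*G93A, against 212, 189 and 143 CPM in WT, so that only the Gprin3 genotypes separated. The difference was -1.05 ± 0.23 (adjusted p = 0.102).

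The 64 axon guidance genes had a median difference of -0.45 and 0 called, with 46 negative, against 7769 of the 15476 genes tested. Of the 64, 14 were lower at an unadjusted p under 0.05 (6% of all genes tested), and 16 fell in Gprin3 IPs (4.95%). Sema5b, a transmembrane semaphorin, was at 1.4, 1.04 and 0.736 CPM in SOD1*G93A Gprin3 IPs, against 6.79 and 9.53 CPM in WT, and at 21.8, 12.2, 9.47 and 13.2 CPM in SOD1*G93A Colgalt2 IPs, against 14.1, 12.1 and 21 CPM in WT. At baseline, Sema5b was at 1.43 and 0.532 CPM in Gprin3 IPs, 1 above and 1 below the SOD1*G93A libraries and both below the WT libraries, and its difference with those as WT was 0.18. Spectrins, ankyrins and spectraplakins had a median of -0.92, with 11 of 11 negative and 0 called, and also a Colgalt2 median of -0.84.

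Ion channel lists had smaller medians and 0 calls for the difference. Potassium channels gave -0.22 (55 members), and calcium channel subunits -0.28 (21 members). Of the calcium channel subunits 7 were lower and 1 higher at an unadjusted p under 0.05, against 6% and 3.26% of all genes tested. Kcnn3, which encodes the small-conductance calcium-activated potassium channel SK3, was at 2.81, 2.57 and 2.83 CPM in SOD1*G93A Gprin3 IPs, against 9.92 and 8.76 CPM in WT. Its Colgalt2 levels overlapped, and the difference was -1.74 ± 0.43 (adjusted p = 0.146). Cacna1c, the pore-forming subunit of an L-type channel, gave -0.95 ± 0.28, and Grm2, the presynaptic glutamate receptor mGluR2, gave -1.72 ± 0.47 and shares 9.6% of its exonic bases with an antisense transcript, with adjusted p of 0.237 for Cacna1c and 0.196 for Grm2.

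Respiratory chain genes had positive median effects in both lines and median differences near 0, although few passed the threshold in Colgalt2 IPs. Of 37 complex I subunits 12 rose in Gprin3 IPs (median 0.61) and 2 in Colgalt2 IPs (median 0.59), and 0 fell in either line. Over all genes tested 2.11% rose in Gprin3 and 0.0775% in Colgalt2 IPs. The median difference of complex I was 0.08, and 0 were called. For 32 of 37 the 95% interval of the difference lay within 1 log2 unit of 0, against 4756 of the 15476 genes tested. Every SOD1*G93A library was above every WT library for 36 of the 37 in Gprin3 IPs, against 18.8% of all genes tested, and for 23 in Colgalt2 IPs, against 4.3%. At an unadjusted p under 0.05, 30 of the 37 were higher in SOD1*G93A Colgalt2 IPs, against 4.5% of all genes tested. Of 42 subunits of complexes II to V, 17 rose in Gprin3 IPs (2.11% of all genes tested) and 5 in Colgalt2 IPs (0.0775%). Their median difference was 0.05 with 0 called.

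Cox4i1, a subunit of cytochrome c oxidase, was at 1020.1, 972 and 919 CPM in SOD1*G93A Gprin3 IPs, against 697 and 575 CPM in WT. In Colgalt2 IPs Cox4i1 was at 249, 324, 351 and 263 CPM in SOD1*G93A, against 168, 186 and 155 CPM in WT. The genotypes did not overlap in either line, and 9.94% of its exonic bases are shared with Emc8. Cox4i1 rose by 0.64 ± 0.17 in Gprin3 and 0.81 ± 0.14 in Colgalt2 IPs, and the difference was -0.17 ± 0.22 (95% interval -0.63 to 0.29).

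Ndufa10 and Atp5b were the complex I and ATP synthase members farthest toward the Gprin3 line among those named. Ndufa10 rose by 0.70 ± 0.17 in Gprin3 IPs, had an estimate of -0.09 ± 0.14 in Colgalt2 IPs, and differed by 0.79 ± 0.22 (adjusted p = 0.206). Atp5b, the beta subunit of ATP synthase, was at 2433, 2555 and 2464 CPM in SOD1*G93A Gprin3 IPs, against 1624 and 1372 CPM in WT. Colgalt2 IPs had 2349, 2349, 2381 and 3133 CPM of Atp5b in SOD1*G93A, against 2261, 2435 and 2401 CPM in WT, and the difference was 0.64 ± 0.22 (adjusted p = 0.325).

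Of 78 members among the cytoplasmic ribosomal protein genes, 15 rose in Gprin3 IPs (median 0.55) and 1 in Colgalt2 IPs (median 0.48). Over all genes tested 2.11% rose in Gprin3 and 0.0775% in Colgalt2 IPs. The median difference of the 78 members was 0.08 with 0 called. Rps14 was at 103, 165 and 90.8 CPM in SOD1*G93A Gprin3 IPs, against 66 and 60.1 CPM in WT, and at 25.8, 32.4, 36 and 22.4 CPM in SOD1*G93A Colgalt2 IPs, against 13, 12.7 and 9.19 CPM in WT. It was the member called in Colgalt2 IPs, at 1.33 ± 0.21 (adjusted p = 0.0262), against 0.94 ± 0.25 in Gprin3 IPs. Rpl29 lay the other way, with a difference of 0.82 ± 0.24 (adjusted p = 0.227). Many of these genes have processed pseudogene copies that can split reads, so single values are uncertain. Mitochondrial ribosomal proteins had a median difference of 0.19 and proteasome subunits 0.16, with 0 called in each list.

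These values depended on the WT Gprin3 libraries in the Gprin3 line. With baseline Gprin3 IPs as the WT, the median Gprin3 effect of complex I was -0.00 and that of the cytoplasmic ribosome -0.27. The median difference was then -0.57 for complex I, -0.54 for complexes II to V with 2 members called lower, and -0.75 for the cytoplasmic ribosome with 11 called lower.

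**Figure D5:**
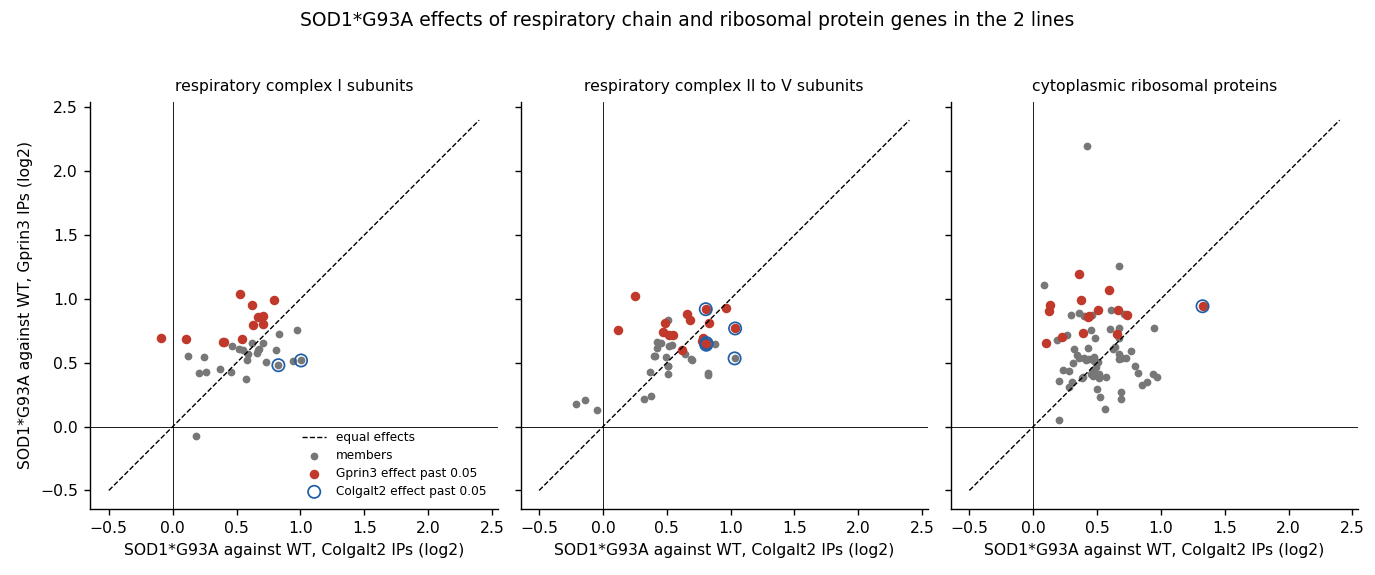
SOD1*G93A against WT log2 fold change in Colgalt2 IPs (x) and Gprin3 IPs (y) of complex I, complex II to V and cytoplasmic ribosomal genes, 1 point per gene, with red points and blue rings for effects past an adjusted p of 0.05 in Gprin3 and Colgalt2 IPs. Medians of complex I are 0.61 in Gprin3 and 0.59 in Colgalt2 IPs, and the points scatter around the dashed line of equal effects.

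Of the 12 genes that rose in Colgalt2 IPs, 6 also rose in Gprin3 IPs, against 2.11% of all genes tested. All 12 were higher in every SOD1*G93A library of both lines, against 18.8% of all genes tested in Gprin3 IPs and 4.3% in Colgalt2 IPs. These 12 genes were chosen by the Colgalt2 effect, so their separation in that line supports nothing further. Stmn3, a stathmin-family regulator of microtubules, was the 1 among them with an unadjusted p under 0.05 for the difference. It was at 735, 672 and 681 CPM in SOD1*G93A Gprin3 IPs, against 645 and 614 CPM in WT, and at 416, 369.6, 418 and 277 CPM in SOD1*G93A Colgalt2 IPs, against 212, 238 and 168 CPM in WT. The Stmn3 effect was 0.18 ± 0.18 in Gprin3 and 0.85 ± 0.15 in Colgalt2 IPs, a difference of -0.67 ± 0.23 (adjusted p = 0.331).

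No gene passed the threshold with a higher effect in Gprin3 IPs, and 6 with small p in that direction are named by rule. They had the smallest p among genes of at least 5 mean CPM in the group with the highest mean. Predicted and clone-named genes were left out of that choice. Gad2, an enzyme of GABA synthesis, was at 689.6, 808 and 624 CPM in SOD1*G93A Gprin3 IPs, against 536 and 462 CPM in WT. In Colgalt2 IPs Gad2 was at 207, 178, 199 and 105 CPM in SOD1*G93A, against 421, 294 and 209 CPM in WT. Its libraries separated in opposite directions in the lines, and the difference was 1.36 ± 0.33 (95% interval 0.68 to 2.05, adjusted p = 0.146). The other GABA synthesis gene, Gad1, had estimates of -0.38 ± 0.27 in Gprin3 and -0.65 ± 0.23 in Colgalt2 IPs. The 20 interneuron markers had a median difference of 0.27 and 0 calls in either line. Their median effect was 0.04 in Gprin3 IPs and -0.41 in Colgalt2 IPs, where 7 of the 20 were lower at an unadjusted p under 0.05, against 2.93% of all genes tested.

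Pgam1, a glycolytic mutase, was at 987, 1027 and 1082 CPM in SOD1*G93A Gprin3 IPs, against 670.2 and 539.8 CPM in WT, and at 615, 512, 727 and 513 CPM in SOD1*G93A Colgalt2 IPs, against 602, 682 and 619 CPM in WT. Pgam1 rose in Gprin3 IPs, but it has processed copies that can take reads, and the difference of 0.90 ± 0.22 had an adjusted p of 0.146. Glycolysis enzymes as a list had a median difference of 0.09 over 16 members. Gmeb1, which encodes a transcriptional modulator, gave 1.22 ± 0.32, and Trappc6b, a vesicle-tethering subunit, gave 0.96 ± 0.27. Dlk1 and Cyr61 had larger estimates, 4.31 ± 1.13 for Dlk1 (adjusted p = 0.17) and 4.03 ± 1.11 for Cyr61 (adjusted p = 0.196). Both reached a mean of 5 CPM only in WT Colgalt2 IPs, at 11.6 and 5.55 CPM. Dlk1 was at 0.17 to 1.78 CPM in SOD1*G93A and 0.179 and 0.119 CPM in WT Gprin3 IPs, which overlapped. Cyr61 was at 1.35 to 2.21 CPM in SOD1*G93A and 0.0447 and 0.298 CPM in WT Gprin3 IPs. Their Colgalt2 estimates were -1.40 ± 0.58 for Dlk1 and -0.67 ± 0.60 for Cyr61.

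Layer 5b identity genes gave a small median difference. The 22 extratelencephalic markers had a median effect of 0.38 in Gprin3 and 0.14 in Colgalt2 IPs, a median difference of 0.25, and 0 called for the difference. At an unadjusted p under 0.05, 7 of the 22 were higher and 1 lower in Gprin3 IPs, where 1570 of the 15476 genes tested were higher. In Colgalt2 IPs 0 were higher and 1 lower. For 14 of the 22 the 95% interval of the difference lay within 1 log2 unit of 0, against 4756 of the 15476 genes tested. Fezf2 effects differed by 0.45 ± 0.32 (95% interval -0.23 to 1.12), those of Bcl11b by -0.09 ± 0.20 (-0.51 to 0.34) and those of Crym by 0.40 ± 0.28 (-0.19 to 0.99). The list's exception was Sulf1, which encodes an extracellular heparan sulfatase, at 0.054, 1.35 and 1.75 CPM in SOD1*G93A Gprin3 IPs, against 6.26 and 11.1 CPM in WT. Sulf1 fell in Gprin3 IPs and gave a difference of -2.86 ± 0.82 (adjusted p = 0.228). Nefh, the heavy neurofilament subunit, gave -0.04 ± 0.24, and Slc17a7, the vesicular glutamate transporter VGLUT1, gave -0.22 ± 0.24.

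Stress and injury lists showed no calls for the difference. The median difference was 0.02 for 27 genes of the unfolded protein and integrated stress responses, 0.04 for 23 heat shock proteins, 0.21 for 22 immediate early genes and 0.07 for 30 antioxidant enzymes. For 35 genes linked to inherited ALS in humans it was -0.06. Ccnf, which encodes cyclin F and is on that list, was at 0.324, 3.92 and 2.04 CPM in SOD1*G93A Gprin3 IPs, against 18.5 and 5.3 CPM in WT, with a difference of -2.86 ± 0.83 (adjusted p = 0.227). Nr4a2, an orphan nuclear receptor, was at 8.37, 11.1 and 17.9 CPM in SOD1*G93A Gprin3 IPs, against 30.9 and 35.4 CPM in WT. Its Colgalt2 levels were 212, 177, 152 and 169.6 CPM in SOD1*G93A, against 171, 157 and 227 CPM in WT, and its difference was -1.32 ± 0.33 (adjusted p = 0.154). Vegfd, a lymphatic growth factor, had 14.1, 0.796 and 8.37 CPM in SOD1*G93A Gprin3 IPs, against 0.894 and 0.477 CPM in WT. The replicates were too far apart to place its difference of 2.64 ± 1.02 (adjusted p = 0.414). Colgalt2 IPs had 10.2, 9.41, 7.28 and 9.79 CPM of Vegfd in SOD1*G93A, against 2.21, 6.67 and 5.84 CPM in WT, without overlap. Whole M1 input had 4.88 to 10.8 CPM in SOD1*G93A and 1.22 to 2.59 CPM in WT. The Vegfd estimate was 3.54 ± 0.88 in Gprin3 and 0.90 ± 0.61 in Colgalt2 IPs.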

How the data were processed

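Ribosome-bound RNA was sequenced from the cortex of bacTRAP mice. Per the labels' protocols, amplification by a NuGEN Ovation V2 kit started from 15 ng of RNA, followed by TruSeq v2 library preparation. The authors used genome build mm10, Subread, featureCounts and DESeq2 1.26.0, per the submitters' processing notes. Versions of Subread and featureCounts are not given in the sources used here. The deposited files hold whole-number read counts of 24100 features per library. Leaving out 9 features without a symbol, which took up to 0.0148% of the counts of these 12 libraries, left 24091.

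Samples were grouped by title, line and genotype. Counts were tested with edgeR 4.0.16 (R 4.3.3, limma 3.58.1) by filterByExpr, TMM factors, a robust quasi-likelihood F test and Benjamini-Hochberg adjustment at 0.05. The 12 libraries were fitted together with 1 mean per group, and the difference of effects and each line's effect were contrasts of that fit, so these share libraries. Levels in CPM scale each count by the total of its library, without normalization factors. Transcript lengths (longest transcript, GENCODE vM21) were found for 94.88% of the genes tested. The procedure was tested on simulated data.

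The genes to name were those called, by size of the difference, up to 6 with the smallest p in a direction with fewer than 6 calls, up to 3 members per list and direction or, with none called, the member with the smallest p, the genes called in Colgalt2 IPs and a fixed set of drivers and markers. The up to 6 by smallest p were taken among genes of at least 5 mean CPM in the group with the highest mean. Predicted, clone-named and mitochondrial genes and microRNA or small nucleolar RNA genes were left out of these and of the list members. Not every gene so named is printed. The 58 genes followed through the alternatives and examined for outlying libraries were settled with their values known. Members and lists were chosen with earlier results of these data known. Samples were not treated as paired by replicate number. Deviations of same-numbered samples correlated between -0.08 and 0.05, which cannot exclude a pairing. With 2 WT Gprin3 libraries the deviations mirror each other, so they tell nothing about it in that line. No libraries were duplicates. Alternatives were RLE size factors, 2 filters, DESeq2 1.42.0, a replicate block, thinning, each library left out, terms for the sequenced read, transcript length or glial marker sum, baseline IPs as the WT, and limma-voom.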

Additional observations from a re-analysis of the deposited data

Results flagged for a closer look

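The SOD1*G93A effect differed between Gprin3 and Colgalt2 IPs, by the interaction contrast of edgeR's quasi-likelihood test, in 12 genes. The log2 differences were -5.32 for Mfsd2a, -4.69 for Hrh1, -4.07 for Aldh1a2, -2.62 for Cald1 and -2.22 for Ndrg1. They were -2.06 for Scube1, -1.67 for Pclo, -1.63 for Atp2b4, -1.50 for Slc8a2, -1.26 for Arid1a, -1.22 for Atp1b2 and -1.14 for Crebbp. Every SOD1*G93A Gprin3 library lay below every WT Gprin3 library in each of them, as in 21.3% of all genes tested. The genes were chosen by a contrast of these libraries, so this separation supports nothing further.

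In the 4 SOD1*G93A Colgalt2 IPs, 1 library lay far from the other 3 for 8 of 60 measures examined (58 genes, the library total and the glial marker sum). Chance gives about 1 in 20 for independent measures, but these share the same 4 libraries, and 6 of the 8 come from replicate 2. Replicate 2 was the high one for Hrh1 (14.8 CPM), Pclo (674 CPM), Kcnn3 (27.2 CPM), Malat1 (2364 CPM) and Xist (138 CPM), and the low one for Gprin3 (23.5 CPM). Replicate 4 was the low one for Slc8a2 (92.8 CPM) and the high one for Atp5b (3133 CPM). Without replicate 2, 1 gene was called for the difference, and without replicate 4, 2 genes.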

How the results depend on the processing

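The count of genes called for the difference was 12. It was 1 with RLE size factors, 51 without a low-count filter, 1 with a mean of at least 5 CPM, 135 with DESeq2, 2 with a term for the 2 libraries whose names carry R1, 3 without them, 1 with the transcript length trend taken out, 0 with the glial covariate (edgeR), 54 with baseline Gprin3 IPs as the WT and 47 with limma-voom in 2 fits. Thinning gave 14. The Gprin3 count of 1092 was 1807 with DESeq2, 526 with the length trend taken out, 0 with the glial covariate and 173 with baseline IPs. The Colgalt2 count of 12 was 69 without a filter, 126 with DESeq2, 22 with the R1 term, 51 without those libraries, 1 with the length trend, 3 with the glial covariate and 1 with baseline IPs. With a replicate block, although a pairing by these numbers was not established, 28 genes were called for the difference, of which 6 were among the 12. That block gave 664 calls for the Gprin3 effect and 3 for the Colgalt2 effect. Leaving out 1 library gave 1 to 146 calls for the difference, 184 to 1458 for Gprin3 and 0 to 131 for Colgalt2, and a lone WT Gprin3 library is then assumed to vary like the other groups. The causes of these moves were not tested. Of 1385 gene values under alternatives, 1096 kept direction and side of the threshold, 190 lost the threshold, 48 gained it and 51 changed sign. With baseline IPs as the WT the log2 difference was 0.094 for Crebbp, -1.48 for Cyr61, -0.025 for Ndufa10, -0.33 for Atp5b, -0.54 for Rpl29, 0.34 for Cacna1c, 0.18 for Sema5b, -0.54 for Sod1, -0.13 for Gprin3, -0.083 for Fezf2, 0.052 for Bcl11b, -0.26 for Crym, 0.34 for Nefh, 0.044 for Mbp, 0.12 for Gfap, 1.67 for Flt1, -0.26 for Snap25, -0.21 for Sst, -0.47 for Rpl10a and 0.28 for Cux1. With the glial covariate it was -0.27 for Gprin3, -0.59 for Fezf2, -0.13 for Crym, 0.38 for Aqp4, 1.95 for Flt1, -0.88 for Snap25 and -0.00981 for Rpl10a, and with the length trend taken out 0.21 for Bcl11b, 0.034 for Nefh and 0.0695 for Flt1. Flt1 was at 0.53 with the replicate block and 0.058 with the R1 term, Snap25 at -0.33 without the R1 libraries, and limma-voom gave -0.053 for Snap25 and -0.0904 for Malat1. Leaving out 1 library gave -0.22 to 0.10 for Nefh, -0.40 to 6.51 for Xist, -2.43 to 0.96 for Flt1, -0.91 to 1.22 for Malat1, -0.24 to 0.33 for Snap25 and -0.20 to 0.47 for Gad1. Low counts limit Mfsd2a, Hrh1, Aldh1a2 and Cdh5.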
